A study of Mus musculus with 9 samples.

Results

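The transcripts described here were those that stood highest on the middle day of a 4-day differentiation series in wild type (WT) mouse embryonic stem cells (ESCs). They were selected on the 3 WT libraries. A gene was a member when its log2(FPKM + 1) value at day 2 exceeded both the day 0 and the day 4 value by at least 0.8. FPKM counts fragments relative to transcript length and library size, and its sum over the table was lowest at day 2 in every line (391226, 392495 and 391915 in WT, 1KO and 1KO+1CI cells, against 403833 to 436945 at the other days). Symbols that begin with Mir, Snord or Hist were left out. The rule gave 307 members among 14870 genes (2.06%). With all sums made equal, an alternative added after the data were seen, 399 genes met the rule, including all 307 members. All 307 could be placed on the genome annotation, which types 282 of them as protein-coding and 15 as lincRNA.

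RNA-seq was carried out on 9 libraries, 1 for each combination of 3 J1-derived ESC lines with days 0, 2 and 4. The lines were WT cells, Dnmt1-/- cells (1KO), and Dnmt1-/- cells that carry a DNMT1C1229S transgene (1KO+1CI), which encodes DNMT1 without catalytic activity under the CAG promoter, linked by an IRES to zeocin resistance. Per the methods, 2 independent transgenic clones were isolated and results stand for either a representative clone or the mean of both, and it is not stated which holds for the RNA-seq libraries. All lines were kept on mitomycin C-treated embryonic fibroblast feeders with LIF. For differentiation, feeders were depleted on gelatin, and the ESCs formed embryoid bodies for 1 day in serum medium without LIF and then grew attached for 3 days. Day 2 therefore falls 1 day after the embryoid bodies were plated.

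No group had a second library. The differences below accordingly carry no replicate error and no p-value, and 0.8 on the log2 scale is used as a size limit only. The WT values describe how the members were chosen and support nothing. The 1KO and 1KO+1CI libraries were not used in the choice, and the question addressed is how far these lines followed the WT time course. In such bulk RNA, fewer cells of a type and less RNA per cell cannot be told apart.

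When LIF is withdrawn, ESCs leave the naive state through a formative epiblast-like state before germ layer genes come on. Early in this exit, naive factors are lost and DNMT3 enzymes with their cofactor DNMT3L increase, while DNMT1 maintains CpG methylation through each division. Aggregation, plating and serum can also engage stress programs, among them the ATF4 response to amino acid limitation, the p53 response, the NRF2 response and metallothionein induction by metals.

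The labels were checked on Dnmt1 and on marker genes. Dnmt1 stood at 74.0, 80.4 and 48.5 FPKM at days 0, 2 and 4 in WT cells, at 13.7, 17.4 and 12.3 FPKM in 1KO cells and at 315, 129 and 158 FPKM in 1KO+1CI cells, which carry the transgene. The 5 ESC markers (Pou5f1, Sox2, Nanog, Zfp42 and Esrrb) summed to 1364, 1705 and 1184 FPKM at days 0, 2 and 4 in WT cells, to 1628, 1229 and 998 FPKM in 1KO cells and to 1626, 1038 and 893 FPKM in 1KO+1CI cells. This sum was thus highest at day 2 in WT cells and at day 0 in both mutants. The markers did not move together. From day 0 to day 2 in WT cells, Pou5f1 went from 632 to 980 FPKM and Zfp42 from 266 to 336 FPKM. Nanog went down from 163 to 89.5 FPKM, while Sox2 (206 and 199 FPKM) and Esrrb (96.5 and 100 FPKM) changed little. Of the 15 feeder fibroblast markers 13 were in the table, and their sum was 260, 394 and 420 FPKM at day 0 in WT, 1KO and 1KO+1CI cells, 164, 128 and 152 FPKM at day 2, and 235, 255 and 614 FPKM at day 4. Tagln alone gave 417 FPKM of the last value, whereas Col1a1 was at 3.76 to 9.86 FPKM in the day 4 libraries. None of these markers was a member, and none was at 0. The ESC and feeder marker sums moved with the days, and their part in the results was not tested. The depth inferred from the smallest steps of the values was 20200000 to 28000000 counted reads or fragments per library.

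Promoter sequences of some members are shown first because several results turn on the genes that carry them. Bases were taken from the RefSeq promoter set on GRCm38.p6 and cover positions upstream of the annotated start. A run of 15 bases, given in capitals in the lines that follow, was common to the promoters of 8 zinc-finger members on chromosome 4, and among 32851 promoters it occurred in 12 (0.0365%). It was found by comparing the promoters of the members with each other, so its presence in all 8 was built in. On the plus strand the lines run from Zfp980 at chr4:145670531-145670605, Zfp987 at chr4:146097136-146097210, Zfp600 at chr4:146156667-146156741 and Zfp981 at chr4:146514731-146514805 to Rex2 at chr4:147021690-147021764 and Zfp982 at chr4:147492241-147492315. On the minus strand are Zfp979 at chr4:147642600-147642674 and Zfp984 at chr4:147809893-147809967.
Zfp980: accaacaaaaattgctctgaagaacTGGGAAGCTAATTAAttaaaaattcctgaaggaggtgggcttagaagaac
Zfp987: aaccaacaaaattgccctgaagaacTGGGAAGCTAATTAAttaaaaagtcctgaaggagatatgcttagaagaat
Zfp600: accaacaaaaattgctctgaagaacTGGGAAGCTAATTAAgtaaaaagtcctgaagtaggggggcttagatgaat
Zfp981: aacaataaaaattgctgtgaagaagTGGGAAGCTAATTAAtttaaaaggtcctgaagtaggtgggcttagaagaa
Rex2: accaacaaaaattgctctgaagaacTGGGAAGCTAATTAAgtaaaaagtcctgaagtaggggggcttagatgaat
Zfp982: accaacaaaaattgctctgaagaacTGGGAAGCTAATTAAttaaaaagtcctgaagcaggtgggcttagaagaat
Zfp979: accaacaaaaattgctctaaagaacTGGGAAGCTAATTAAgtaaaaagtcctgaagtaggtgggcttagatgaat
Zfp984: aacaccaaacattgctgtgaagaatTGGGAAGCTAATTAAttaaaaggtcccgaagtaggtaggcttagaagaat

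The upstream sequences of 4 further members are shown. They were picked by motif from the 12 tallest WT peaks, and Ubap1l and Epas1, with taller WT peaks than Mt1, are not shown. For Capn3 and Nupr1 only a promoter with the site was printed. The Capn3 window belongs to an annotated start inside the gene, which spans chr2:120456019-120504913. Capitals in Capn3 and Nupr1 mark the ATF4 element TGATGCAA on either strand, and in Mt1 and Mt2 they mark the metal response core TGCACNC or TGCGCNC on either strand. The windows are chr2:120476659-120476908 on the plus strand, chr7:126625471-126625720 on the minus strand, chr8:94178839-94179088 on the plus strand and chr8:94172368-94172617 on the plus strand.
Capn3: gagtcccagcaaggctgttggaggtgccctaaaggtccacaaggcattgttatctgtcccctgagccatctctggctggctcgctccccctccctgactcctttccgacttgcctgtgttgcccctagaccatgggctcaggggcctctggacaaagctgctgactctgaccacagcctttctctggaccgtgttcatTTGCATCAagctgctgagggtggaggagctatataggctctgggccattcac
Nupr1: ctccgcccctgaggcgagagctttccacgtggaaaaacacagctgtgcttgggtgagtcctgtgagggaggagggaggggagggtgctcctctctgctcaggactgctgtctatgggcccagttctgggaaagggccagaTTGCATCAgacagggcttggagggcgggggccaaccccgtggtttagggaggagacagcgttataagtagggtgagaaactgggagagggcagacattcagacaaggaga
Mt1: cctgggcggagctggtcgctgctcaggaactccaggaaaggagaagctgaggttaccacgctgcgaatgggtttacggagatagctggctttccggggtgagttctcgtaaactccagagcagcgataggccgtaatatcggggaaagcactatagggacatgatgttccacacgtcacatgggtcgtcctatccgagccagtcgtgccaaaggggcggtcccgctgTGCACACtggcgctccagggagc
Mt2: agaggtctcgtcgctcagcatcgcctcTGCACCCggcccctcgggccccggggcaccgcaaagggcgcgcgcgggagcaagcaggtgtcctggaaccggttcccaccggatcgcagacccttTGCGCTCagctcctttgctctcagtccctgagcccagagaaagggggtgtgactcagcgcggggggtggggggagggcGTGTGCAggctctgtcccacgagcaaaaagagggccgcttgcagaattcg
RefSeq promoters of 300 bases were matched for 232 of the 307 members (302 promoters). TGATGCAA occurred in 5 of these 302 (1.66%), against 0.583% of the 14761 promoters of genes in the table and 0.895% of all promoters. The 2 metal response cores were common everywhere, with TGCACNC in 13.6% of member promoters and 13.2% of table promoters, and TGCGCNC in 17.9% and 26.2%. Among the other motifs searched on both strands, the AP-1 site TGACTCA occurred in 4.97% of member promoters and 3.7% of table promoters, the E-box CACGTG in 12.6% and 9.82%, TATAAA in 9.27% and 7.28%, and the GC box GGGCGG in 54% and 61.4%. The cyclic AMP element TGACGTCA occurred in 1.99% of member promoters and 2.91% of table promoters, and the hypoxia core ACGTG in 23.5% and 24.8%. For CCAAT the shares were 40.1% and 37.6%, and for the octamer ATTTGCAT 1.99% and 1.36%. A match is a description of the letters and not a bound site.

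The members as a set still stood highest at day 2 in most cases in both mutant lines, but on a lower and flatter course. The median member level in WT cells was 4.04 FPKM at day 0, 10.99 FPKM at day 2 and 3.18 FPKM at day 4. In 1KO cells it was 6.25, 8.31 and 3.15 FPKM, and in 1KO+1CI cells 6.22, 7.59 and 3.595 FPKM. The medians over all genes ranged only from 6.11 to 6.73 FPKM over the 9 libraries. The mutant lines thus differed from WT at both ends of the rise, with a higher day 0 and a lower day 2 median, and were near WT at day 4. The ESC marker sum given above also had a higher day 0 and a lower day 2 value in the mutants than in WT cells. Sox2 went the other way at day 0, with 187 and 173 FPKM in 1KO and 1KO+1CI cells against 206 FPKM in WT cells. The part of the ESC markers in these differences was not tested. These differences from WT share the WT libraries with the rule, which selected a low day 0 and a high day 2 value there.

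**Figure D1:**
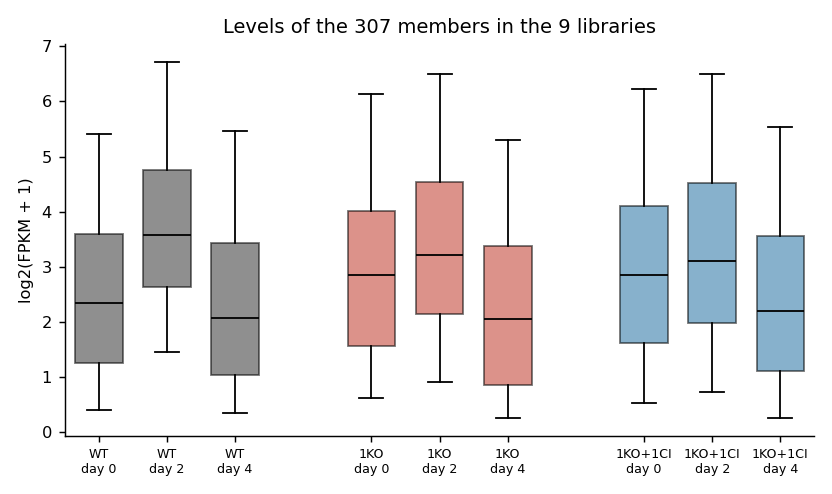
Levels of the 307 members, as log2(FPKM + 1), in each of the 9 libraries. Boxes span the quartiles, the black line is the median and whiskers reach the 5th and 95th percentiles over genes. The median climbs from 4.04 to 10.99 FPKM between days 0 and 2 in WT cells and from 6.22 to 7.59 FPKM in 1KO+1CI cells, with all day 4 medians between 3.15 and 3.595 FPKM.

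For each line, the difference day 2 minus day 0 is called the rise, day 2 minus day 4 the fall, and the smaller of both the peak height, all on the log2(FPKM + 1) scale. Day 2 was the highest of the 3 days for 252 members in 1KO cells (82.1%, against 31.3% of all genes) and for 214 members in 1KO+1CI cells (69.7%, against 32.3%). The full rule was met by 50 members in 1KO cells (16.3%, against 0.72% of all genes), by 36 in 1KO+1CI cells (11.7%, against 0.794%) and by 25 in both (8.14%, against 0.343%). The median peak height of the members was 0.39 in 1KO cells and 0.22 in 1KO+1CI cells, where all genes had medians of −0.16 and −0.14. In WT cells, where it was selected, it was 0.99.

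In both mutant lines fewer members passed the rise than the fall. A rise of at least 0.8 was seen for 69 members in 1KO cells (background 2.95%) and 67 in 1KO+1CI cells (background 3.78%), with median rises of 0.47 and 0.39. A fall of at least 0.8 was seen for 186 members in 1KO cells (background 5.52%) and 139 in 1KO+1CI cells (background 5.14%), with median falls of 1.02 and 0.72. In 1KO cells 136 members passed the fall alone, 19 the rise alone and 102 neither. In 1KO+1CI cells these numbers were 103, 31 and 137. Both mutant lines placed 88 members in the class with the fall alone and 85 in the class with neither.

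**Figure D2:**
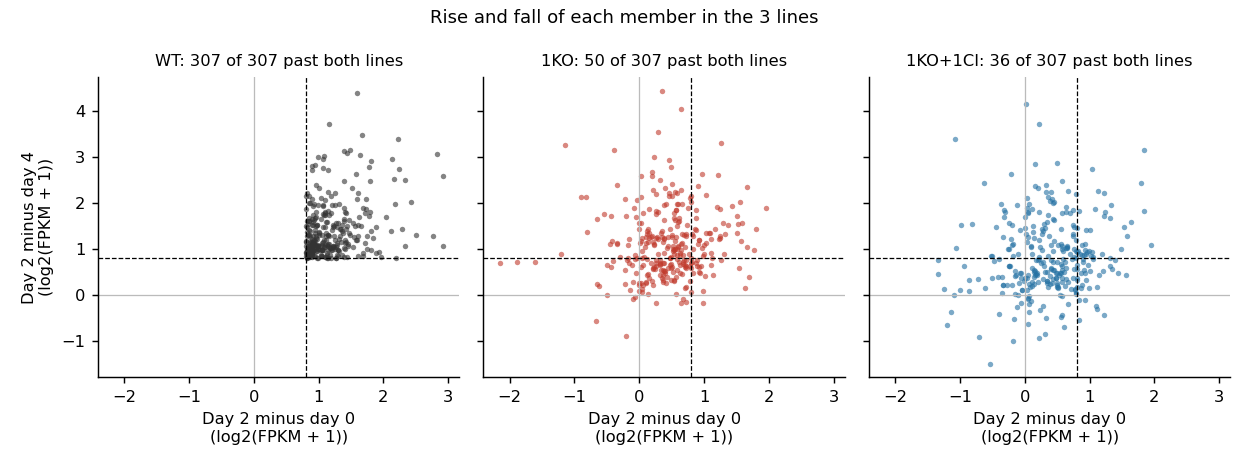
Rise (x axis) and fall (y axis) of each of the 307 members in log2(FPKM + 1), 1 panel for each line and 1 point for each gene, with dashed lines at 0.8. The WT panel is empty outside the upper right corner because the members were selected there. In the mutant panels the points lie mainly above the horizontal line at 0 and to the left of the vertical dashed line, and 50 and 36 of them pass both dashed lines.

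The day 4 level was below the day 0 level for 199 members in WT cells, 244 in 1KO cells and 202 in 1KO+1CI cells, or 64.8%, 79.5% and 65.8% of them, against 50.8%, 48.9% and 47.2% of all genes. It was lower by at least 0.8 for 44, 118 and 97 members in the same order, or 14.3%, 38.4% and 31.6%, against 6.96%, 7.41% and 7.63% of all genes.

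For comparison, the same rule was applied to each of the other lines. The 107 genes that met it in 1KO cells had a median peak height of 0.96 there, 0.77 in WT cells and 0.79 in 1KO+1CI cells. The 118 genes that met it in 1KO+1CI cells had 0.95 there, 0.53 in WT cells and 0.73 in 1KO cells. In each case the line used for the choice stood highest. Day 2 was the highest day in WT cells for 95 of the 107 genes (88.8%) and 100 of the 118 (84.7%), against 33.3% of all genes. The 50 genes that met the rule in both WT and 1KO cells made up 16.3% of the WT list and 46.7% of the 1KO list, and the 36 shared by WT and 1KO+1CI cells made up 11.7% and 30.5%. The mutant lines shared 51 genes, 47.7% of the 1KO list and 43.2% of the 1KO+1CI list.

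The choice has an arbitrary edge. Zfp329, Sap25 and Zfp990 were the members just inside, with WT peak heights of 0.8001, 0.8005 and 0.8015. Zfp428, Prcd and Rbm47 were just outside, at 0.7998, 0.7986 and 0.7986. Within 0.1 of the limit lay 95 members and 109 genes that were not members. Of the members, 148 had a WT peak height of at least 1 and 8 of at least 2.

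The tallest WT peaks belonged to genes of diverse function. Capn3, a calcium-dependent cysteine protease known from muscle, was at 0.936, 12.8 and 0.657 FPKM at days 0, 2 and 4 in WT cells, at 4.06, 11.2 and 0.232 FPKM in 1KO cells and at 1.75, 8.80 and 0.11 FPKM in 1KO+1CI cells. Its peak height was thus 2.83, 1.27 and 1.83 in the 3 lines. Ubap1l, a little-studied relative of the ubiquitin-binding protein UBAP1, was at 0.668, 11.6 and 1.11 FPKM in WT cells, 0.726, 5.68 and 0.803 FPKM in 1KO cells and 0.395, 3.01 and 0.432 FPKM in 1KO+1CI cells. Both genes met the rule in every line, with their highest day 2 level in WT cells and their lowest in 1KO+1CI cells. Epas1, which encodes the hypoxia-inducible factor HIF-2α, was at 1.92, 12.8 and 1.07 FPKM in WT cells, 6.25, 15.8 and 1.76 FPKM in 1KO cells and 6.30, 16.1 and 2.70 FPKM in 1KO+1CI cells. Its day 2 level was higher in the mutants than in WT cells, and its smaller rise there (1.21 and 1.23, against 2.24) came from the day 0 level. Of the 30 listed hypoxia and glycolysis genes in the table none was a member.

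Neat1, the long non-coding RNA that scaffolds paraspeckles, was at 5.21, 26.8 and 3.84 FPKM in WT cells, 4.88, 17.5 and 8.03 FPKM in 1KO cells and 3.803, 17.5 and 7.63 FPKM in 1KO+1CI cells. Here the rise was kept in size better than the fall, with rises of 2.16, 1.66 and 1.94 and falls of 2.52, 1.04 and 1.10 in WT, 1KO and 1KO+1CI cells. Ankrd45, an ankyrin-repeat gene, had peak heights of 2.02, 1.04 and 1.08. Lgals3, which encodes galectin-3, was at 5.76, 28.6 and 2.83 FPKM in WT cells but at 22.1, 22.7 and 4.42 FPKM in 1KO cells and 17.0, 19.6 and 11.2 FPKM in 1KO+1CI cells, with rises of 2.13, 0.03 and 0.20 and falls of 2.95, 2.12 and 0.76 in WT, 1KO and 1KO+1CI cells.

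Phf19, a Polycomb-associated protein that reads H3K36 methylation, and Zfp57, the KRAB zinc-finger protein that protects methylation of imprinted regions, had rises of −0.22 and 0.19 in 1KO cells and of 0.06 and −0.37 in 1KO+1CI cells, against 1.79 and 1.81 in WT cells. Zfp57 was at 37.0, 132 and 16.7 FPKM in WT cells, 92.7, 106 and 15.8 FPKM in 1KO cells and 93.6, 72.4 and 17.5 FPKM in 1KO+1CI cells. Phf19 was at 1.83, 8.79 and 0.751 FPKM in WT cells, 7.39, 6.21 and 0.698 FPKM in 1KO cells and 5.36, 5.61 and 0.889 FPKM in 1KO+1CI cells. Jarid2, another Polycomb partner and the single member among 24 chromatin and DNA methylation genes, was at 60.3, 110 and 45.0 FPKM in WT cells, 100, 102 and 34.2 FPKM in 1KO cells and 103, 89.3 and 30.2 FPKM in 1KO+1CI cells. All 3 genes had a higher day 0 level in both mutants than in WT cells and a day 4 level below day 0 in every line.

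**Figure D3:**
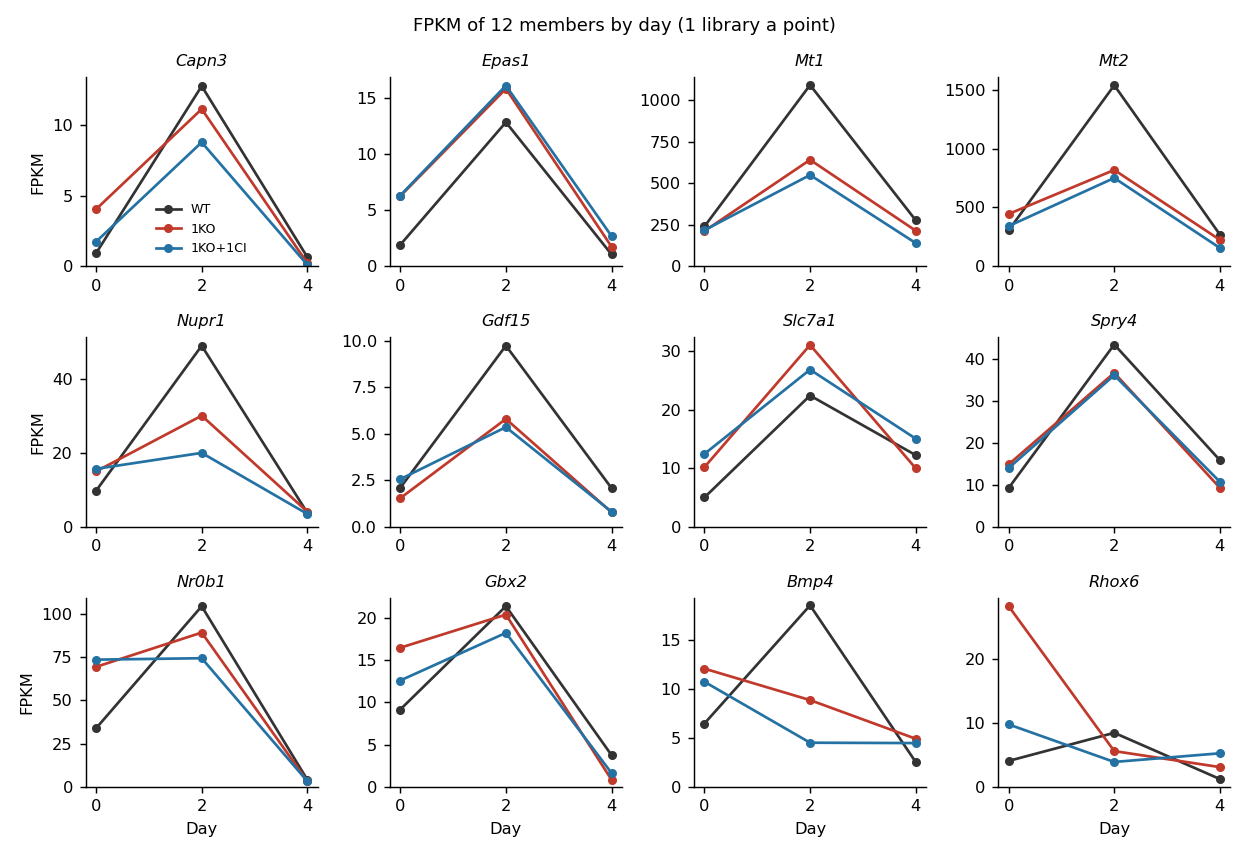
FPKM of 12 members on days 0, 2 and 4, with 1 line for each cell line, 1 library for each point and a separate FPKM axis from 0 for each gene. All but Bmp4 and Rhox6 have their maximum at day 2 in all 3 lines, for Nr0b1 in 1KO+1CI cells by little (74.4 against 73.6 FPKM at day 0). Bmp4 and Rhox6 have theirs at day 0 in 1KO and 1KO+1CI cells.

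The 29 gene lists held 28 of the members, and these fell into 14 lists. Day 2 was the highest day for 27 of the 28 in 1KO cells and for 22 in 1KO+1CI cells, beside 82.1% and 69.7% of all members and 31.3% and 32.3% of all genes. The full rule was met by 11 and 5 of the 28, beside 16.3% and 11.7% of all members and 0.72% and 0.794% of all genes. The lists with no member were primitive streak, trophoblast, feeder fibroblast, 2-cell stage, germline and piRNA, hypoxia and glycolysis, cholesterol synthesis, interferon response, cell cycle and mitosis, oxidative phosphorylation, imprinted, epithelial and mesenchymal, neural, mesoderm with blood and vessel, and cytoskeleton with SRF targets. The other 279 members stood in no list.

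Genes of the ATF4 and amino acid response held the most members of any list, with 6 of 23 listed genes among the members. Nupr1, a stress-induced chromatin-associated protein, was at 9.71, 49.0 and 3.74 FPKM in WT cells, 14.9, 30.0 and 4.04 FPKM in 1KO cells and 15.6, 20.0 and 3.42 FPKM in 1KO+1CI cells. The Nupr1 promoter holds the element shown above, which was not found in the matched promoters of the listed members Trib3, Atf5, Sesn2 and Slc7a1. Its part in the courses of these genes was not tested. For Nupr1 the ratio of day 2 to day 0 was 2.01 in 1KO cells (95% interval 1.71 to 2.36) and 1.28 in 1KO+1CI cells (1.07 to 1.53). These exact Clopper-Pearson intervals rest on recovered read numbers and cover counting error only. The day 2 level of Nupr1 was lower in both mutants than in WT cells, and lowest in 1KO+1CI cells.

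Trib3, a pseudokinase that feeds back on ATF4 signalling, was at 6.62, 34.1 and 18.9 FPKM in WT cells, 6.94, 26.2 and 12.9 FPKM in 1KO cells and 6.95, 22.7 and 8.70 FPKM in 1KO+1CI cells, and it met the rule in all lines with almost equal day 0 levels. Slc7a1, the cationic amino acid transporter CAT1, was at 4.99, 22.5 and 12.2 FPKM in WT cells, 10.2, 31.1 and 9.98 FPKM in 1KO cells and 12.4, 26.9 and 15.1 FPKM in 1KO+1CI cells. Its mutant day 2 levels were above that of WT cells, and its peak heights were 0.82, 1.52 and 0.796, the last just under the limit. Sesn2, an inhibitor of mTORC1 under leucine shortage, had peak heights of 1.21, 1.22 and 0.37 in WT, 1KO and 1KO+1CI cells. Those of Atf5, a transcription factor downstream of ATF4, were 1.45, 0.68 and 0.33. Cth, the cystathionine gamma-lyase of cysteine synthesis, was at 16.2, 116 and 46.7 FPKM in WT cells, 20.3, 60.7 and 40.2 FPKM in 1KO cells and 17.1, 41.1 and 55.9 FPKM in 1KO+1CI cells, so that in the last line it was still higher at day 4 than at day 2. Over the whole list, a rise of at least 0.8 was seen for 17 of 23 genes in 1KO cells and 14 in 1KO+1CI cells, beside backgrounds of 2.95% and 3.78%. The median rise of the list was 1.10, 0.98 and 0.86 in WT, 1KO and 1KO+1CI cells, whereas its median fall was 0.14, 0.31 and 0.23. Most listed genes were therefore higher at day 2 than at day 0 in both mutants, and the list as a whole came down little by day 4.

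Metallothioneins bind zinc and copper and are induced by metals, glucocorticoids and oxidants. Mt2 was at 306, 1537 and 270 FPKM in WT cells, 445, 818 and 226 FPKM in 1KO cells and 342, 750 and 156 FPKM in 1KO+1CI cells. Mt1 was at 240, 1090 and 278 FPKM in WT cells, 212, 641 and 215 FPKM in 1KO cells and 218, 550 and 140 FPKM in 1KO+1CI cells. Both met the rule in every line, with similar day 0 levels of Mt1 and a lower day 2 level in both mutants. Hmox1, the heme oxygenase induced by NRF2, was at 54.7, 420 and 199 FPKM in WT cells, 95.5, 274 and 107 FPKM in 1KO cells and 84.5, 251 and 184 FPKM in 1KO+1CI cells. These 3 genes were the members among 11 listed oxidative stress genes. A rise of at least 0.8 was seen for 3 of the 11 in each mutant line (backgrounds 2.95% and 3.78%). The median rise over the 11 was only 0.24, 0.32 and 0.13 in WT, 1KO and 1KO+1CI cells.

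Members among 18 listed p53 targets were Mdm2, Trp53inp1, Eda2r and Gdf15. Gdf15, a stress-induced cytokine of the TGF-beta family, was at 2.09, 9.74 and 2.07 FPKM in WT cells, 1.53, 5.80 and 0.772 FPKM in 1KO cells and 2.55, 5.35 and 0.802 FPKM in 1KO+1CI cells. It met the rule in all 3 lines. Mdm2, the ubiquitin ligase that degrades p53, was at 48.5, 109 and 54.6 FPKM in WT cells, 62.0, 91.1 and 39.7 FPKM in 1KO cells and 78.7, 118 and 75.3 FPKM in 1KO+1CI cells. Trp53inp1, a p53-induced autophagy and apoptosis protein, had rises of 1.24, 1.25 and 0.86 and falls of 1.05, 0.76 and 0.48. Eda2r, a receptor of the TNF family, met the rule in 1KO cells with a peak height of 0.92 and had 0.49 in 1KO+1CI cells. Over the 18 listed genes, a rise of at least 0.8 was seen for 4 in 1KO cells (background 2.95%) and 3 in 1KO+1CI cells (background 3.78%). Among members noted after their values were seen, Trp73, the p53 relative p73, had peak heights of 1.03, 0.91 and 0.86, and Plk3, a stress-activated kinase, had 1.40, 0.26 and 0.45.

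Among pluripotency genes the rise and the fall differed widely. Nr0b1, which encodes the nuclear receptor DAX1 and is typical of naive ESCs, was at 33.8, 104 and 4.07 FPKM in WT cells, 69.4, 89.2 and 3.17 FPKM in 1KO cells and 73.6, 74.4 and 3.23 FPKM in 1KO+1CI cells. Its fall was above 4 in every line (4.38, 4.43 and 4.16), but its rise was 1.60, 0.36 and 0.02. Gbx2, a homeobox gene of the naive network, was at 9.16, 21.4 and 3.75 FPKM in WT cells, 16.5, 20.4 and 0.831 FPKM in 1KO cells and 12.6, 18.2 and 1.63 FPKM in 1KO+1CI cells. These were 2 of 17 listed naive genes, and none of the 17 had a rise of at least 0.8 in a mutant line (backgrounds 2.95% and 3.78%). Over the list the median rise was 0.06 in WT cells, −0.86 in 1KO cells and −1.25 in 1KO+1CI cells. Day 2 was under day 0 by at least 0.8 for 9 of the 17 in 1KO cells and 14 in 1KO+1CI cells, beside backgrounds of 4.92% and 4.98%.

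Dppa4, a nuclear protein of pluripotent cells, was at 63.2, 126 and 71.6 FPKM in WT cells, 70.2, 102 and 31.3 FPKM in 1KO cells and 68.7, 93.4 and 28.9 FPKM in 1KO+1CI cells. It is in the list of 11 core pluripotency genes. Dnmt3l, the cofactor of the de novo DNA methyltransferases, was the member among 14 formative epiblast genes and stood at 41.3, 144 and 42.9 FPKM in WT cells, 203, 286 and 41.0 FPKM in 1KO cells and 203, 304 and 53.7 FPKM in 1KO+1CI cells. At days 0 and 2 it was higher in the mutants than in WT cells, while the day 4 levels lay close together. Among the 14 formative genes, 7 had a rise of at least 0.8 in 1KO cells (background 2.95%) and 7 in 1KO+1CI cells (background 3.78%).

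Signalling genes followed several courses. Spry4, a feedback inhibitor of FGF-ERK signalling, was at 9.21, 43.5 and 15.9 FPKM in WT cells, 14.9, 36.7 and 9.26 FPKM in 1KO cells and 14.0, 36.2 and 10.7 FPKM in 1KO+1CI cells, and met the rule in each line. Etv4, an ETS factor induced by the same pathway, was at 9.17, 37.8 and 19.2 FPKM in WT cells but at 29.4, 30.9 and 17.0 FPKM in 1KO cells and 21.9, 26.9 and 20.8 FPKM in 1KO+1CI cells. Among the 14 listed FGF-ERK feedback genes, 3 had a rise of at least 0.8 in each mutant line (backgrounds 2.95% and 3.78%). The members of that list thus parted, with peak heights of 1.25 and 1.31 for Spry4 and of 0.07 and 0.29 for Etv4 in the mutants.

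Bmp4 and its target Id1 also parted. The ligand Bmp4 was at 6.45, 18.5 and 2.52 FPKM in WT cells, 12.04, 8.84 and 4.90 FPKM in 1KO cells and 10.7, 4.49 and 4.46 FPKM in 1KO+1CI cells. Id1, an inhibitor of basic helix-loop-helix factors that BMP induces, was at 23.6, 53.6 and 25.01 FPKM in WT cells, 25.5, 58.9 and 21.3 FPKM in 1KO cells and 21.8, 55.9 and 35.6 FPKM in 1KO+1CI cells. The Id1 rise was 1.15, 1.18 and 1.32, almost equal in the 3 lines, while that of Bmp4 was 1.39, −0.41 and −1.09. Notum, a secreted inhibitor of Wnt and the member among 11 Wnt targets, had rises of 1.67, 0.23 and −0.21 and falls of 3.48, 2.99 and 2.63. Myc, the member among 21 immediate early genes, was at 9.27, 33.6 and 16.2 FPKM in WT cells, 26.0, 42.3 and 25.9 FPKM in 1KO cells and 16.4, 37.5 and 27.3 FPKM in 1KO+1CI cells. Among the remaining list members, Apoe (primitive endoderm list) had peak heights of 0.82, 0.09 and −0.11, Hspb1 (heat shock list) 0.82, 0.02 and −0.04, and Sqstm1 (lysosome and autophagy list) 0.93, 0.26 and 0.26.

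**Figure D4:**
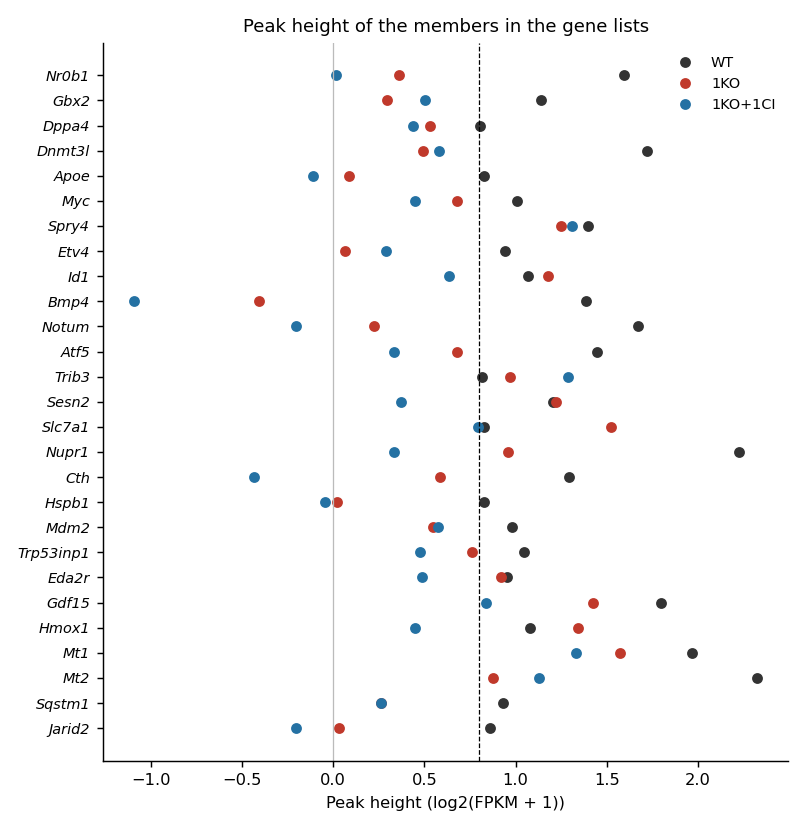
Peak height in log2(FPKM + 1) of 27 members that stand in a gene list, with 1 point for each line and the dashed line at 0.8. All WT points lie at or right of the dashed line by choice, 11 of the 1KO points and 5 of the 1KO+1CI points pass it, and Bmp4 lies furthest left, at −0.41 and −1.09.

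Genes with roles in vessels formed a further group of 14, put together after the values were seen, and 8 of the 14 were members. Besides Epas1 these members were Mmrn2, Robo4, Esam, Tek, Eng, Vegfc and Nrp2. Only the 8 members had a rise of at least 0.8 in WT cells, where it was selected. Of the 14, such a rise was seen for 2 in 1KO cells (background 2.95%) and 1 in 1KO+1CI cells (background 3.78%). Mmrn2, a matrix protein of endothelium, was at 2.27, 10.2 and 0.64 FPKM in WT cells, 4.58, 6.64 and 0.707 FPKM in 1KO cells and 4.63, 4.82 and 0.693 FPKM in 1KO+1CI cells. Tek, the angiopoietin receptor, had rises of 1.83, 1.14 and 0.24, and Robo4, an endothelial guidance receptor, 1.74, 0.28 and −0.35. Of these 8 genes Epas1 alone met the rule in a mutant line. The 4 blood and vessel markers Kdr, Pecam1, Cdh5 and Tal1 summed to 21.3, 29.7 and 5.32 FPKM in WT cells, 18.2, 15.3 and 2.85 FPKM in 1KO cells and 20.4, 13.6 and 2.86 FPKM in 1KO+1CI cells. Pecam1 alone gave 20.8, 28.6 and 2.47 FPKM in WT cells, 16.8, 13.2 and 1.40 FPKM in 1KO cells and 18.7, 11.3 and 0.98 FPKM in 1KO+1CI cells. Tal1 and Cdh5 were highest at day 4 in WT cells, at 2.23 and 0.191 FPKM. The part of these markers in the group's course was not tested.

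Flcn and Rragc, which act together in amino acid sensing at the lysosome, were also members, with lysosomal proteins such as Tpp1, Scarb2, Clcn7 and Dpp7. These genes were picked from among the members, after the values were seen. Flcn was at 12.1, 23.8 and 11.6 FPKM in WT cells, 10.3, 18.6 and 11.6 FPKM in 1KO cells and 11.5, 16.6 and 14.2 FPKM in 1KO+1CI cells. Rragc had peak heights of 0.85, 0.39 and 0.18, and Dpp7 1.48, 0.60 and 0.72. In the list of 15 lysosome and autophagy genes fixed apart from these, Sqstm1 was the only member. A rise of at least 0.8 was seen for 0 of the 15 in 1KO cells (background 2.95%) and 1 in 1KO+1CI cells (background 3.78%).

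Zinc-finger genes were frequent among the members. Symbols that begin with Zfp made up 22 of the 307 members (7.17%) and 378 of the 14870 genes (2.54%). KRAB zinc-finger proteins, to which many of these belong, repress transposable elements by recruiting TRIM28. Day 2 was the highest day for all 22 in 1KO cells and for 17 in 1KO+1CI cells, beside 57.9% and 60.6% of all 378 Zfp genes and 31.3% and 32.3% of all genes. The median peak heights of the 22 were 0.46 and 0.35. The 378 Zfp genes as a family had median rises of 0.26, 0.31 and 0.28 in WT, 1KO and 1KO+1CI cells, so a higher day 2 level was not particular to the members.

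The longest run of members less than 1000000 bases apart, by number of members, lay on chromosome 4 and spanned chr4:145510759-147987205 (GRCm38), with 10 members among 26 genes of the table. They were Zfp990, Zfp980, Zfp987, Zfp600, Zfp981, Rex2, Zfp982, Zfp979, Zfp984 and Nppb, the last being the natriuretic peptide gene. Among the 26 genes, day 2 was the highest day for 22 in WT cells, where it was fixed for the 10 members, and 20 in each mutant line. Over all genes the shares were 33.3%, 31.3% and 32.3% in WT, 1KO and 1KO+1CI cells. Of 14 genes in the run named Zfp or Rex2, all 14 were highest at day 2 in WT cells. In 1KO cells 13 were (all but Zfp933), and in 1KO+1CI cells 13 (all but Zfp991). By contrast Miip, in the same span, was at 17.3, 9.78 and 13.9 FPKM in WT cells, with day 2 also lowest in 1KO cells at 14.4, 11.3 and 16.1 FPKM. In 1KO+1CI cells it was at 16.3, 13.3 and 12.5 FPKM and lowest at day 4.

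The 15-base stretch printed above was present in the promoters of 11 genes of the table, the 8 members shown and the non-members Gm13212, Zfp534 and Zfp985. All 11 were highest at day 2 in each of the 3 lines, which for the 8 members in WT cells was fixed by the rule. Over all genes the shares highest at day 2 were 33.3%, 31.3% and 32.3% in WT, 1KO and 1KO+1CI cells. Zfp992, in the same run but not among the 11, was also highest at day 2 in each line. The part of the stretch in this course was not tested. For the 8 members the rise was 0.38 to 0.91 in 1KO cells and 0.14 to 0.79 in 1KO+1CI cells, and the fall was 1.11 to 2.94 and 1.25 to 2.86. For the 3 non-members the rise was 0.52 to 0.59 in 1KO cells and 0.16 to 0.48 in 1KO+1CI cells, and the fall was 1.19 to 1.85 and 1.25 to 1.86. The rise thus stayed below 0.8 for all but Zfp980, at 0.91 in 1KO cells, while all falls passed it.

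Zfp981 was at 12.4, 25.7 and 5.83 FPKM in WT cells, 50.5, 69.6 and 8.18 FPKM in 1KO cells and 57.5, 64.3 and 8.02 FPKM in 1KO+1CI cells. Rex2 was at 5.00, 15.0 and 3.68 FPKM in WT cells, 22.2, 31.8 and 6.35 FPKM in 1KO cells and 26.2, 35.2 and 7.54 FPKM in 1KO+1CI cells. Both were higher at days 0 and 2 in the mutants than in WT cells. Gm13212, which the rule did not choose, was at 1.66, 4.38 and 2.14 FPKM in WT cells, 5.95, 9.43 and 2.59 FPKM in 1KO cells and 6.85, 9.95 and 3.02 FPKM in 1KO+1CI cells. With the lowest day 2 level of the 8 members, Zfp982 was at 3.29, 6.64 and 2.97 FPKM in WT cells and at 6.03, 10.0 and 4.12 FPKM in 1KO cells. These genes are close copies, with 98.7% identity between the 300-base promoters of Zfp600 and Rex2 and 85% between those of Zfp980 and Zfp979. How reads that map to several copies were assigned is not given in the sources used here, so the copies may share reads and cannot be counted as separate observations. The same limit holds for Rhox6 with Rhox9 and for Ass1 with Gm5424. Plet1 and Plet1os are not copies but overlap on opposite strands of chromosome 9. The strand setting is not given, so Plet1 and Plet1os may also share reads and cannot be counted as separate observations.

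**Figure D5:**
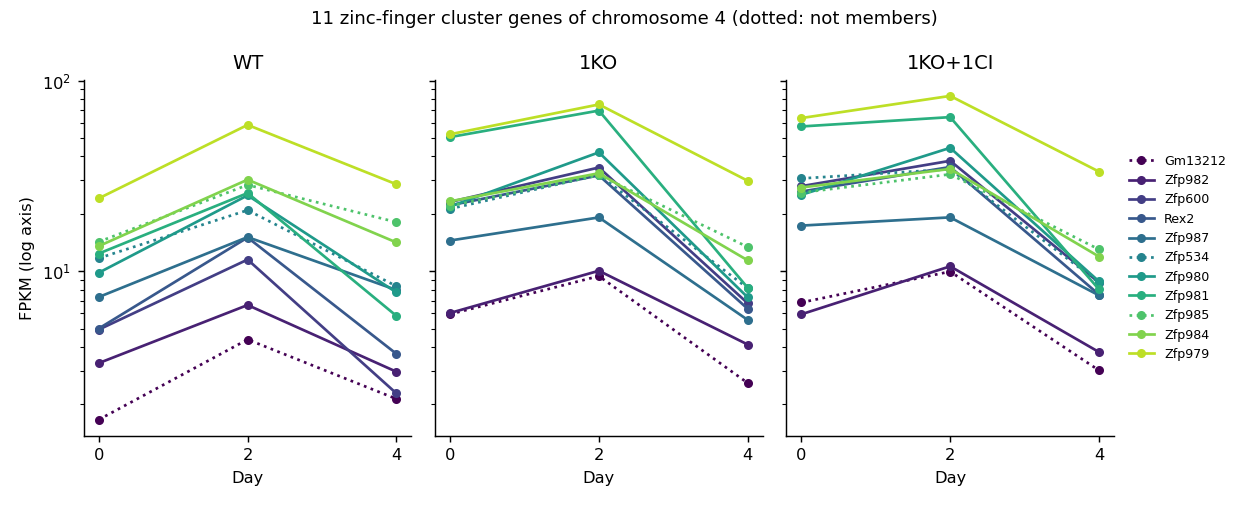
FPKM on a log axis of the 11 chromosome 4 genes whose promoters hold the shared stretch, by day (x axis) and line (panels), with dotted lines for the 3 genes that were not members. Every gene is highest at day 2 in every panel, which for the members in the WT panel was fixed by the choice. The day 0 levels are higher in the 1KO and 1KO+1CI panels than in the WT panel. The copies may share reads.

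The members that followed the WT course best in the mutants, by mean peak height, were Capn3, Ubap1l, Epas1, Mt1, Spry4, 4930548H24Rik, Neurod1 and Slc7a1. Neurod1, a neuronal transcription factor, was at 2.46, 9.55 and 4.87 FPKM in WT cells, 2.27, 8.55 and 1.36 FPKM in 1KO cells and 3.48, 15.1 and 3.55 FPKM in 1KO+1CI cells. The unnamed transcript 4930548H24Rik was at 0.949, 6.22 and 2.83 FPKM in WT cells, 2.78, 10.9 and 1.36 FPKM in 1KO cells and 2.78, 12.1 and 1.42 FPKM in 1KO+1CI cells. For 4930548H24Rik the ratio of day 2 to day 0 was 3.94 (95% interval 3.17 to 4.94) in 1KO cells and 4.35 (3.46 to 5.51) in 1KO+1CI cells, counting error only. Both genes had taller peaks in the mutants than in WT cells.

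At the other end stood Cd37, Lgals9, Mylpf, AU018091, Rhox9, Rhox6, Serpinb9b and Anxa8. Day 2 was below day 0 by at least 0.8 for 8 members in 1KO cells (2.61%, against 4.92% of all genes) and 14 in 1KO+1CI cells (4.56%, against 4.98%). Such a drop was thus not more frequent among the members than among all genes. Rhox6, an X-linked homeobox gene of the reproductive cluster, was at 4.04, 8.44 and 1.21 FPKM in WT cells, 28.2, 5.58 and 3.08 FPKM in 1KO cells and 9.76, 3.88 and 5.24 FPKM in 1KO+1CI cells. Its neighbour Rhox9 was at 4.13, 8.74 and 2.17 FPKM in WT cells, 19.9, 4.66 and 2.41 FPKM in 1KO cells and 7.24, 2.25 and 1.35 FPKM in 1KO+1CI cells. For Rhox6 the ratio of day 2 to day 0 was 0.198 in 1KO cells (95% interval 0.159 to 0.244) and 0.398 in 1KO+1CI cells (0.299 to 0.524). Both genes were at their highest in 1KO cells at day 0, well above the WT maximum.

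Mylpf, a fast-muscle myosin light chain, was at 33.6, 76.1 and 4.91 FPKM in WT cells, 99.7, 44.7 and 3.77 FPKM in 1KO cells and 75.03, 34.99 and 2.43 FPKM in 1KO+1CI cells. Cd37, a tetraspanin of lymphocytes, was at 2.19, 8.56 and 0.541 FPKM in WT cells but at 5.03, 0.97 and 0.192 FPKM in 1KO cells and 3.94, 0.96 and 0.162 FPKM in 1KO+1CI cells. Serpinb9b, a protease inhibitor of the serpin family, was lowest at day 2 in both mutants, at 10.2, 6.06 and 9.38 FPKM in 1KO cells and 6.91, 4.43 and 14.2 FPKM in 1KO+1CI cells, against 4.77, 9.53 and 3.82 FPKM in WT cells. The ratio of day 2 to day 4 for Serpinb9b was 0.647 (95% interval 0.55 to 0.758) in 1KO cells and 0.312 (0.263 to 0.37) in 1KO+1CI cells.

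The mutant lines were also set against each other at day 2, where neither library had been used in the choice. The median difference 1KO+1CI minus 1KO was −0.08 over the members and 0.01 over all genes. It was 0.02 at day 0 and 0.15 at day 4, so the members were slightly lower at day 2 and slightly higher at day 4 in 1KO+1CI cells. At day 2, 8 members were lower in 1KO+1CI cells by at least 0.8 (background 0.242%) and 0 were higher by that size (background 0.33%). Among members with at least 5 FPKM at day 2 in WT cells, the lowest were Serpinb6c, Dusp27, H2-M5, Ntn1 and Bmp4, with differences of −1.079, −0.996, −0.937, −0.932 and −0.841. Ntn1, the guidance ligand netrin-1, was at 8.46, 16.6 and 1.53 FPKM in WT cells, 7.26, 7.05 and 3.58 FPKM in 1KO cells and 6.65, 3.22 and 2.94 FPKM in 1KO+1CI cells. Its ratio of day 2 to day 0 was 0.972 in 1KO cells (95% interval 0.889 to 1.06) and 0.484 in 1KO+1CI cells (0.429 to 0.546). The highest were Neurod1, Mpc1, Gm2004, 1700007K13Rik and Vgf, with differences of 0.75, 0.66, 0.64, 0.61 and 0.55. Vgf, a neurosecretory precursor, was at 3.76, 10.1 and 4.26 FPKM in WT cells, 1.74, 4.94 and 1.56 FPKM in 1KO cells and 2.09, 7.70 and 3.34 FPKM in 1KO+1CI cells.

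Whole read numbers could be recovered for 63 members, which had a median of 229 reads at day 2 in WT cells. The search accepted only genes with a low read number in their lowest library, so the 63 are not a fair sample of the members. For these, the 95% interval of the ratio of day 2 to day 0 lay wholly above 1 for 34 members in 1KO cells and 35 in 1KO+1CI cells, wholly below 1 for 5 and 9, and across 1 for 24 and 19. For the ratio of day 2 to day 4 it lay above 1 for 54 and 36, below 1 for 2 and 4, and across 1 for 7 and 23. For the members whose interval held 1, a difference between days was not detectable at this depth. The same counts were not made over other genes, so no background stands beside them.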

How the data were processed

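RNA-seq of 9 libraries (WT, 1KO and 1KO+1CI ESCs at days 0, 2 and 4, 1 library each) was used. Per the submitters' notes and methods, the authors enriched mRNA with oligo(dT) and used Trim Galore for trimming, HISAT2 with the mm10 genome for mapping, SAMtools for alignments and HOMER for quantification. For versions, strand setting and multi-mapped reads nothing is stated in the labels or methods read. The gene values deposited by the authors are FPKM and were used as such. The table of repeat copies was not used. The columns of the transgenic line carry a number that the sources do not explain, and they were taken as 1KO+1CI.

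Of 15095 entries, 21 name no gene (20 are dates, of which 1 met the rule) and were left out, as were 204 Mir, Snord and Hist symbols, of which 19 met the rule. Differences were taken on log2(FPKM + 1), which understates changes of low genes, with a limit of 0.8. An exact 0 does not occur in the table. With 1 library per group no test was made. A model with line and day as additive terms could be fitted but was not run. Depth was inferred from whole-read steps: of 8400 genes with values of 3 decimals, 37.9% gave whole multiples in all 9 libraries (1.53% after random shifts of the values), and whether a step is a read or a pair is not known. The rule and the step search were tested on simulated data.

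The members and gene lists were chosen with earlier results of these data known. Of members with at least 5 FPKM at day 2 in WT cells (232), the text names the 12 tallest in WT, the 8 tallest and 8 lowest in the mutants and the 5 highest and 5 lowest in 1KO+1CI against 1KO cells at day 2. It also names the members of the 29 lists, 3 genes on each side of the limit, and groups described as put together after the values were seen. A result on 1 listed member is not reported here. Positions are from GENCODE M21 (GRCm38) and promoters from RefSeq (GRCm38.p6). Python 3.11.15, pandas 2.3.3 and scipy 1.17.1 were used.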

Additional observations from a re-analysis of the deposited data

Results flagged for a closer look

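Genes that moved one way in WT cells and the opposite way in both mutant lines drew attention. As a class they were not frequent among the members. Day 2 was below day 0 by at least 0.8 for 2.61% of members in 1KO cells and 4.56% in 1KO+1CI cells, against 4.92% and 4.98% of all genes. Their WT rise of at least 0.8 was fixed by the choice, the difference between lines was not tested, and each value rests on 1 library per day. The difference day 2 minus day 0 in log2(FPKM + 1) was −2.15 in 1KO cells and −1.14 in 1KO+1CI cells for Rhox6, and −1.89 and −1.34 for Rhox9, its neighbour in the Rhox cluster. It was −1.61 and −1.33 for Cd37, −1.21 and −0.997 for Lgals9, which encodes galectin-9, and −1.14 and −1.08 for Mylpf. For Anxa8, an annexin, it was −0.90 and −0.98. Hmces, a sensor of abasic sites in single-stranded DNA, had −0.81 and −1.06. Hmces is outside the rule for named genes and was at 54.8, 116 and 14.1 FPKM at days 0, 2 and 4 in WT cells, 84.6, 47.8 and 17.8 FPKM in 1KO cells and 69.1, 32.6 and 15.4 FPKM in 1KO+1CI cells.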

How the results depend on the processing

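Of 48 values under 8 alternatives, 33 stayed close to the reported ones and 15, all of them counts, moved by more than 1.5 times. No median moved by more than 0.1 or changed sign, and the day 2 median of 1KO+1CI minus 1KO stayed negative, from −0.09 to −0.04. The numbers of members, of members meeting the rule in 1KO cells and of members meeting it in 1KO+1CI cells were 601, 122 and 101 with a pseudocount of 0.1, 699, 159 and 122 with 0.01, and 556, 110 and 83 after rescaling to TPM, which makes the library sums equal and also makes the pseudocount of 1 weigh less. With the sums made equal at their mean, an alternative chosen after seeing the data, they were 399, 70 and 50. They were 148, 22 and 13 at a limit of 1, and 578, 130 and 96 at 0.6. A filter of 5 FPKM in at least 1 library (237 members) and median-ratio factors (327) moved these counts by less than 1.5 times. The 6 settings that gave more members each kept all 307. The share of members meeting the rule stayed higher in 1KO than in 1KO+1CI cells under all 8, at 14.9% to 22.7% and 8.78% to 17.5%. The shares of all genes were 0.316% to 2.84% and 0.289% to 2.8%. Both the member shares and the shares of all genes were largest with the pseudocount of 0.01. There the members stood less far above all genes than in the main setting (16.3% against 0.72% in 1KO cells, 11.7% against 0.794% in 1KO+1CI cells). No paired analysis was possible because each group has 1 library and the labels give no replicate numbers, and no replicate could be left out. Depth limits the low members, and counting intervals were available for 63 of the 307.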
